A study of Mus musculus with 16 samples.

Results

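CpG labelling in heterozygous Dnmt1 N1580A knock-in cells was compared with the background of the same labelling in wild-type cells. The comparison held 6 of the 16 libraries of the study, a triplicate from knock-in cells (Het) and a triplicate from wild-type cells (WT), chosen by their titles. All came from E14TG2a, a mouse embryonic stem cell line, and Het cells carry the N1580A substitution on 1 of 2 Dnmt1 alleles. Het and WT cells alike were electroporated with 1 mM Ado-6-azide, an azide-bearing analog of the methyl donor S-adenosylmethionine, and genomic DNA was taken 3 h later. A further duplicate from wild-type cells, titled a control, is given beside the main groups as a second unmodified-enzyme group (wild-type control). The labels describe growth with leukaemia inhibitory factor and serum, with and without inhibitors of GSK3 and MEK kinases, and do not say which condition the Het and WT triplicates had. They do not say how the wild-type control differed from WT, whether the knock-in line is 1 clone, or whether each replicate was its own culture. The permutation p-values below therefore speak only to the spread between libraries, which may be technical. Those of edgeR rest in addition on a count model whose spread is shared across features. They cannot tell technical from biological spread either. The substitution itself cannot be read from tables of positions.

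DNMT1 is the maintenance DNA methyltransferase: after replication it copies CpG methylation from the parental strand onto the new strand, guided by UHRF1, which recognises half-methylated CpGs. The N1580A substitution lies in the catalytic domain and lets the enzyme transfer the bulky azide group of the analog, so labelled CpGs mark its recent action. Most CpGs of the mouse genome are methylated, while the dense CpG clusters at promoters of widely expressed genes are usually not. Promoters of many germline genes are an exception and are methylated in somatic cells. Each deposited table lists CpG positions with the number of reads assigned to them, and a position is called listed here when it has at least 1 read.

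The promoters below are examples from RefSeq on GRCm38.p6. Each is 300 bases on the gene's strand, from 250 bases before to 50 after an annotated start. Dazl, Sycp1 and Fkbp6 are CpG-rich (defined below) and not typical of that class, in which 8.43% of windows had a Het position. Capitals mark CpGs listed in at least 1 Het library for Dazl, Sycp1, Fkbp6 and Esrrb, and in WT libraries for Xpot. Dazl (chr17:50293571-50293870, minus strand) encodes an RNA-binding protein of germ cells, and Sycp1 (chr3:102936051-102936350, minus strand) a protein of the synaptonemal complex of meiosis. Fkbp6 (chr5:135349864-135350163, minus strand), needed for male meiosis in the mouse, was added after its values were seen. Esrrb (chr12:86360867-86361166, plus strand), a nuclear receptor of naive pluripotent cells, has few CpGs. Xpot (chr10:121626283-121626582, minus strand) encodes the export receptor of transfer RNAs and was the CpG-rich promoter with the most WT positions, also picked for that value.
Dazl: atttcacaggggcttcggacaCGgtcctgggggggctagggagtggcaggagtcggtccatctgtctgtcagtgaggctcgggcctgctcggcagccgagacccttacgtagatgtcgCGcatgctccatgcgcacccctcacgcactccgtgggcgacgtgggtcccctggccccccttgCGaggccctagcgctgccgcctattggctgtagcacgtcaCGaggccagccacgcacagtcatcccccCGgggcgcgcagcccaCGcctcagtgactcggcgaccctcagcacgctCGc
Sycp1: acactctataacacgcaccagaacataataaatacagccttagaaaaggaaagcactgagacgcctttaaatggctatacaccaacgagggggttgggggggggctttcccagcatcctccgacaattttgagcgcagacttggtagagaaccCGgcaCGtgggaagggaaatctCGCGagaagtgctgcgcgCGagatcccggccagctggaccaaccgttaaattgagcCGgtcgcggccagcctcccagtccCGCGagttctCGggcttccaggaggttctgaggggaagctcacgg
Fkbp6: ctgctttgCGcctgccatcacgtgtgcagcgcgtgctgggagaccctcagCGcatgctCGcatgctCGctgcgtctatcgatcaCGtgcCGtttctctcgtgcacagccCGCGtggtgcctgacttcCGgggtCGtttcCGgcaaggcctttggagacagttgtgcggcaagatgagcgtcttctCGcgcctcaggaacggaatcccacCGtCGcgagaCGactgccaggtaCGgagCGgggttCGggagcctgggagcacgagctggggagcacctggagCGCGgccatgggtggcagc
Esrrb: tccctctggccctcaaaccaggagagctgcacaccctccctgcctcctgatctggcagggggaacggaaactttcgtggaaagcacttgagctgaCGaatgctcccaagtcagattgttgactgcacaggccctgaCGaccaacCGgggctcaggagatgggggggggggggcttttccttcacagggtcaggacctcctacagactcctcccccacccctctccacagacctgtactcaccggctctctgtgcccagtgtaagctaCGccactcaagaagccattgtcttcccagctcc
Xpot: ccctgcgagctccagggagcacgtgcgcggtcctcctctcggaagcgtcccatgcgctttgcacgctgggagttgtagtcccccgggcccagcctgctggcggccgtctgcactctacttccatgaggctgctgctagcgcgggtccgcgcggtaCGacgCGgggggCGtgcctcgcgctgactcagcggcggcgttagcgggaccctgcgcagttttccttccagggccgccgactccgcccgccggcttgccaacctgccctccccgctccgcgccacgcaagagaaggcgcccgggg

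The Dazl window holds 28 CpGs, of which 1, 4 and 3 were listed in Het libraries 1, 2 and 3 and none in any WT library. In the Sycp1 window, 0, 4 and 5 of 21 CpGs were listed in the Het libraries and none in the WT libraries. The Fkbp6 window had 1, 13 and 11 of 32 CpGs listed in the Het libraries, at 20 distinct CpGs (62.5%), and again none in WT. Few CpGs recurred between libraries: in Sycp1 the 9 Het listings fell on 9 different CpGs (42.9%). Esrrb had 1, 3 and 1 of 7 CpGs listed in the Het libraries, on 4 distinct CpGs. Xpot had no listed CpG in the Het libraries, and 0, 0 and 3 of 38 in WT libraries 1, 2 and 3. Over all CpG-rich windows the WT libraries listed 28, 5 and 48 of 196196 CpGs. A WT count of 0 in a single window is therefore uninformative.

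Far more CpG positions were listed in the Het libraries. On the autosomes, 1612851, 3362003 and 2595676 CpG positions were listed in Het libraries 1, 2 and 3, against 3829, 945 and 5555 in the WT libraries and 9027 and 3436 in the wild-type controls. The groups did not overlap, and the geometric means differed 888-fold (p = 0.1, two-sided exact permutation test, the smallest p that 3 libraries against 3 can give). With 1 library left out at a time this fold lay between 524 and 1269, the lowest without WT replicate 2. Autosomal reads were 18817232, 24774977 and 21498332 in the Het libraries, against 9405, 1609 and 19507 in the WT libraries and 22608 and 8059 in the controls. Reads differed 3238-fold between Het and WT (p = 0.1, exact permutation test), and leaving out 1 library at a time moved this fold between 1592 and 5542, the highest without WT replicate 3. Per the labels' protocols every library started from the same amount of DNA. Listed positions also depend on how deeply a library was sequenced, and the part of depth in these totals was not tested. Since totals differ so widely, all further comparisons use each library's shares, and WT library 2, with 945 positions, limits their precision.

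Het positions also carried more reads. Each Het position had 11.7, 7.37 and 8.28 reads on average, against 2.46, 1.70 and 3.51 in WT. Positions with a single read made up 9.60%, 12.7% and 11.4% of the Het libraries, against 40.6%, 56.9% and 32.0% of the WT libraries. The groups were apart in both measures. Reads carry no molecular identifiers and can be PCR copies, so distinct positions are the main count and intervals cover counting error only.

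CpG-rich promoters held a much smaller share of Het than of WT positions. Of 31356 autosomal RefSeq promoter windows, 7121 were classed as CpG-rich (at least 55% G and C, and at least 0.75 of the CpGs that base composition predicts), and they hold 196196 of the 349534 promoter CpGs, or 56.1%. In these windows 211, 507 and 414 positions were listed in the Het libraries, against 28, 5 and 48 in WT and 107 and 26 in the controls. As shares of each library, that was 1.47 ± 0.147 per 10,000 positions in Het and 70.8 ± 16.9 in WT (SD, n = 3 each), against 97.1 ± 30.3 in the wild-type control (n = 2). The share was thus 48.2-fold higher in WT, with no overlap between Het and any wild-type library. Exact permutation tests gave p = 0.1 against WT, and p = 0.0179 against WT and control together, the smallest that 3 against 5 can give. Pooling the control with WT, here and below, was not planned, and the labels do not say how these groups differ.

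Windows with fewer CpGs differed less. In 6554 intermediate windows the share was 8.40 ± 0.356 per 10,000 in Het and 49.0 ± 13.6 in WT, 5.83-fold higher in WT. In 17681 CpG-poor windows (under 0.48 of the predicted CpGs) it was 28.9, 28.8 and 29.3 in the Het libraries, against 34.0, 95.2 and 39.6 in WT and 36.6 and 46.6 in the controls, 1.94-fold higher in WT. The 3 Het libraries lay below every wild-type library (exact permutation p = 0.1 against WT), while the test of means against WT and control together, with the 1 high value of WT library 2, gave p = 0.161. Among promoter positions alone, 3.41%, 3.91% and 4.01% lay in CpG-rich windows in the Het libraries, against 50.9%, 25% and 50% in WT and 50.7% and 41.3% in the controls. These windows hold 56.1% of promoter CpGs. The value of WT library 2 rests on 5 positions. The difference of −38.2 percentage points left the groups without overlap (p = 0.1, exact permutation test).

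The share of CpGs listed can be compared between classes within a library, where depth cancels. In the Het libraries 7.58%, 15.8% and 12.4% of CpGs in CpG-poor windows were listed, and 0.108%, 0.258% and 0.211% of those in CpG-rich windows. CpGs of CpG-poor windows were thus listed 70.4, 61.0 and 58.7 times as often as those of CpG-rich windows in Het, against 1.48, 5.75 and 1.46 times in WT and 0.985 and 1.96 times in the wild-type control. This ratio did not overlap between Het and wild-type libraries (exact permutation p = 0.1 against WT and 0.0179 against WT and control together). Reads per listed position were lower in the CpG-rich windows of all 3 Het libraries (7.94, 5.94 and 6.64) than in their CpG-poor windows (12, 7.56 and 8.58).

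In Het the listed share was highest in windows with 3 to 5 CpGs and declined beyond them. Windows with 1 or 2 CpGs had 12.4 ± 4.28% of their CpGs listed (SD, n = 3), those with 3 to 5 had 13.9 ± 4.97%, those with 11 to 15 had 3.78 ± 1.35%, those with 21 to 30 had 0.330 ± 0.127% and those with more than 30 had 0.0927 ± 0.0416%. In WT, the 3 libraries summed listed 73.9 CpGs per 100,000 (95% exact interval 43.1 to 118.3) in windows with 3 to 5 CpGs and 33.5 (23.8 to 45.8) in windows with more than 30. The WT series therefore spanned a narrow range where Het fell steeply, as the plot by CpG number shows.

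**Figure D1:**
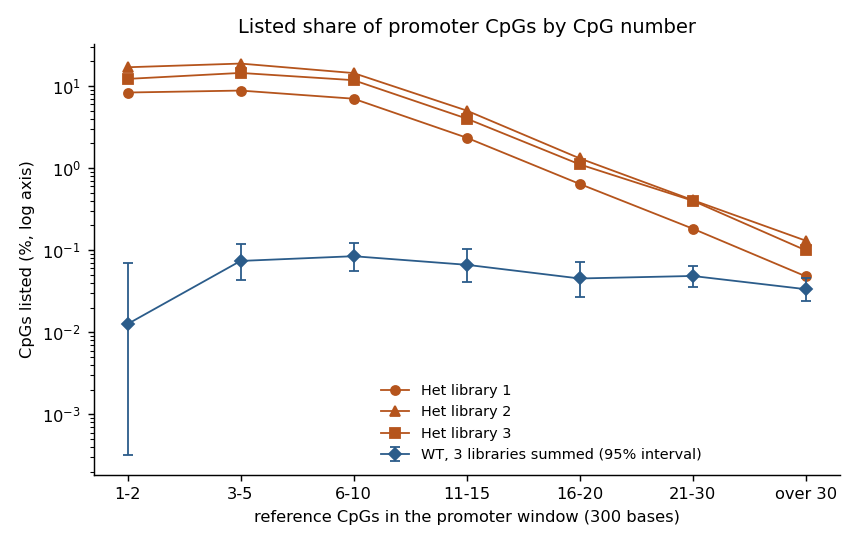
Percent of reference CpGs listed (log axis) in 300-base promoter windows, grouped by the number of CpGs in the window, for each Het library (circles, triangles, squares) and for the 3 WT libraries summed (diamonds, bars are 95% exact intervals of counting error). Het libraries fall from a mean of 13.9% at 3 to 5 CpGs to 0.0927% above 30, while WT stays between 12.6 and 84.4 per 100,000.

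In the profile around annotated starts, this difference was largest close to the start. Positions were counted in bins of 500 bases out to 5 kb on each side of the starts in each promoter class, as shares of library totals, a test chosen after the values were seen. With edgeR's quasi-likelihood test and Benjamini-Hochberg adjustment, 12 of 60 bins passed 0.05, all lower in Het (20%). They were 6 bins around CpG-rich starts, from 1.5 kb before to 1.5 kb after, and 6 around intermediate starts, 5 of them within that distance. No bin was higher in Het on library totals, although TMM and DESeq2 each called 1 bin higher and 10 lower, and none of the 20 bins around CpG-poor starts passed on totals.

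In the 500 bases before CpG-rich starts, the share was 4.77, 4.79 and 4.90 per 10,000 in the Het libraries, against 109.7, 105.8 and 144.0 in WT, a log2 change of −4.73 (SE 0.27, edgeR adjusted p = 9.79e-19). In the 500 bases after them it was 3.77 ± 0.375 in Het and 99.6 ± 4.64 in WT (log2 change −4.74, SE 0.36, edgeR adjusted p = 3.01e-15). Het thus had a trough in positions per bin at the start where WT had a peak. The bins were not divided by their number of CpGs. Per CpG, WT listed 0.0138 ± 0.0110% in CpG-rich and 0.0239 ± 0.0108% in CpG-poor windows. Farther out the groups approached each other. From 5 to 4.5 kb before CpG-rich starts the share was 20.8 ± 0.466 in Het and 32.4 ± 17.8 in WT, which did not pass the test. On simulated counts, in a single run with only 6 of 60 bins changed, the test recovered 33.3% of 2-fold changes. These are too few bins to give a rate, and bins that did not pass may still differ. Just after CpG-poor starts it was 60.7 ± 0.932 in Het and 69.1 ± 33.7 in WT (edgeR adjusted p = 0.0755). The outermost called bin, 5 to 4.5 kb before intermediate starts, had groups that overlap and an edgeR adjusted p of 0.0137.

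**Figure D2:**
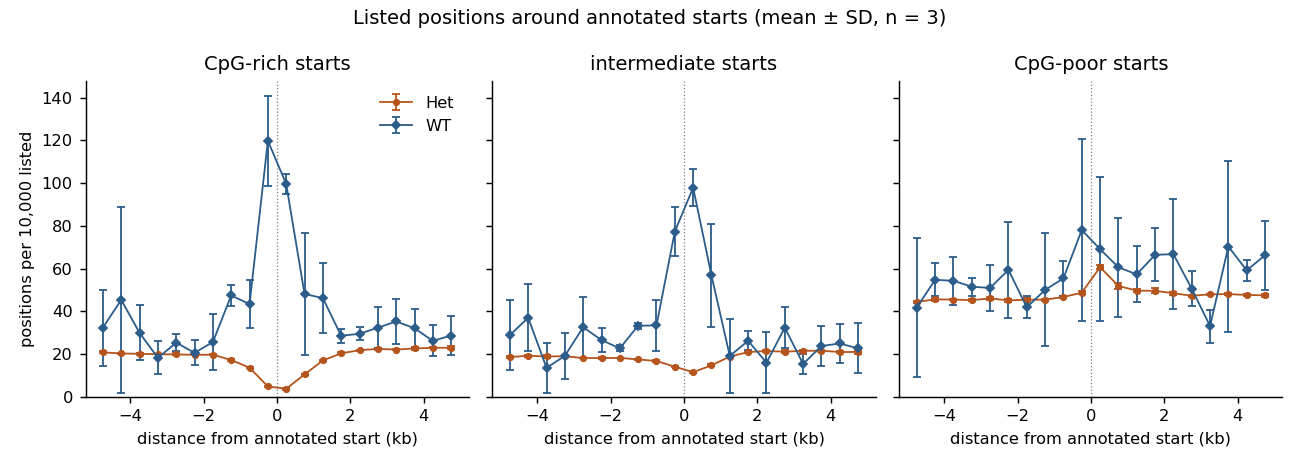
Listed positions per 10,000 in each library, in 500-base bins by distance from annotated starts (kb), for CpG-rich, intermediate and CpG-poor promoters. Points are means of 3 Het (circles) and 3 WT (diamonds) libraries and bars are SD. Het dips to 3.77 after CpG-rich starts where WT reaches 99.6. Around CpG-poor starts the WT means scatter widely, mostly above Het, and no bin passed the test on library totals.

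Within the Het libraries, promoters of the germline list stood among the most listed and housekeeping promoters among the least. The germline list was drawn up as germline genes with methylated promoters, so its share does not describe germline genes at large. Like all lists here, it was chosen with earlier results of these data known. Of 578 CpGs in 31 windows of germline genes, 34, 60 and 54 were listed in Het libraries 1, 2 and 3 (8.54 ± 2.36%, SD, n = 3), and 28 of the 31 windows had a listed CpG. Over all 31356 windows, 12513 had one, and 1.77%, 3.71% and 2.95% of CpGs were listed. In the 11 CpG-rich germline windows, 10 had a Het position, compared with 600 of all 7121 CpG-rich windows (8.43%). Their CpGs were listed at 1.35%, 6.76% and 8.11% in Het libraries 1, 2 and 3, compared with 0.108%, 0.258% and 0.211% over all CpG-rich windows.

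The germline members differed among themselves. Tex101, which encodes a surface protein of male germ cells, had 9, 6 and 6 of 19 CpGs listed in Het libraries, on 15 distinct CpGs (78.9%). Slc25a31, a testis-enriched mitochondrial ADP/ATP carrier, had 2, 5 and 5 of 22, and Ddx4, a helicase of the germline, had 0, 3 and 2 of 38. Tdrd9, a helicase of the piRNA pathway, had 3, 1 and 5 of 10 CpGs in a CpG-poor window. Stag3, a meiotic cohesin subunit, had 1, 0 and 0 of 30. The 3 windows with none were a CpG-rich window of Tdrd5 (48 CpGs), a CpG-poor one of Zfp42 (11 CpGs) and an intermediate one of Prdm9 (18 CpGs). Zfp42 is also a member of the naive pluripotency list. No WT library listed a CpG in any germline window, which at 3 counts allows up to 0.519% per library, well above the WT level over all promoters.

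Of 543 CpGs in 25 housekeeping windows, none was listed in any Het or WT library, which allows a share of up to 0.552%. The wild-type controls listed 0 and 2, both in the Gapdh window. Of the 543 CpGs, 391 lay in 13 CpG-rich windows, a class listed at 0.108%, 0.258% and 0.211% in Het. The 0 there does not tell housekeeping windows from other CpG-rich ones. The housekeeping windows belong to 19 genes, among them Gapdh and Aldoa of glycolysis, the translation factor Eef2 and the RNA polymerase subunit Polr2a. The genes of the methylation machinery had 2, 5 and 5 of 668 CpGs listed in Het, none of them in their 13 CpG-rich windows. The CpG-rich windows of Dnmt1 itself (33 CpGs), its partner Uhrf1 (33), the de novo methyltransferase Dnmt3a (46 and 47) and the demethylation enzyme Tet2 (57) had no Het position, as was the case for most CpG-rich windows, of which 8.43% had one. The start of Dnmt1 that lies in a CpG-poor window (chr9:20959839-20960138) had both of its 2 CpGs listed in Het library 2 and none in Het libraries 1 and 3. Dnmt3l, the catalytically inactive partner of the de novo enzymes, had 1, 1 and 3 of 6 CpGs listed at its first start. Ribosomal protein windows had 0.309%, 1.24% and 0.618% of 1295 CpGs listed in Het, and zinc finger windows 0.598%, 0.767% and 0.804% of 5348.

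Naive pluripotency promoters had 1, 5 and 3 of 233 CpGs listed in Het, all in Esrrb and Tcl1, an AKT co-activator. The windows of Nanog, Pou5f1 and Klf4, core pluripotency factors, had none. Promoters of primed or formative genes had 2, 1 and 0 of 314. Imprinted promoters, of which 1 parental copy is methylated at some loci, had 1.44%, 2.36% and 2.89% of 762 CpGs listed and a Het position in 26 of 51 windows. Among their 11 CpG-rich windows, 3 had a Het position, all at Gnas, a G protein subunit gene, with 2 distinct CpGs over these windows, both in Het library 2. Grb10, an adaptor that dampens insulin signalling, had 1, 1 and 4 of 9 CpGs in a CpG-poor window and none of 45 in a CpG-rich one, and Igf2r none of 34.

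Olfactory receptor promoters, none of them CpG-rich, were listed at 6.53%, 15.5% and 10.7% of 1210 CpGs, and 247 of their 942 windows had a Het position. Over all 17681 CpG-poor windows 9900 had one (56%), and the number of CpGs per window was not matched. Hox windows had 2.88%, 2.64% and 2.16% of 416. In Hoxa10, a homeobox gene of posterior patterning, 7, 2 and 0 of 21 CpGs were listed. Long adhesion genes had 1.74%, 4.35% and 3.91% of 460 CpGs listed. Lineage markers had 0.649%, 0.866% and 2.16% of 462. WT libraries listed 55, 20 and 96 promoter CpGs in all, so their level per list was below what these lists could show: WT had none in any list except ribosomal protein (1, 1 and 0) and zinc finger genes (2, 0 and 1).

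**Figure D3:**
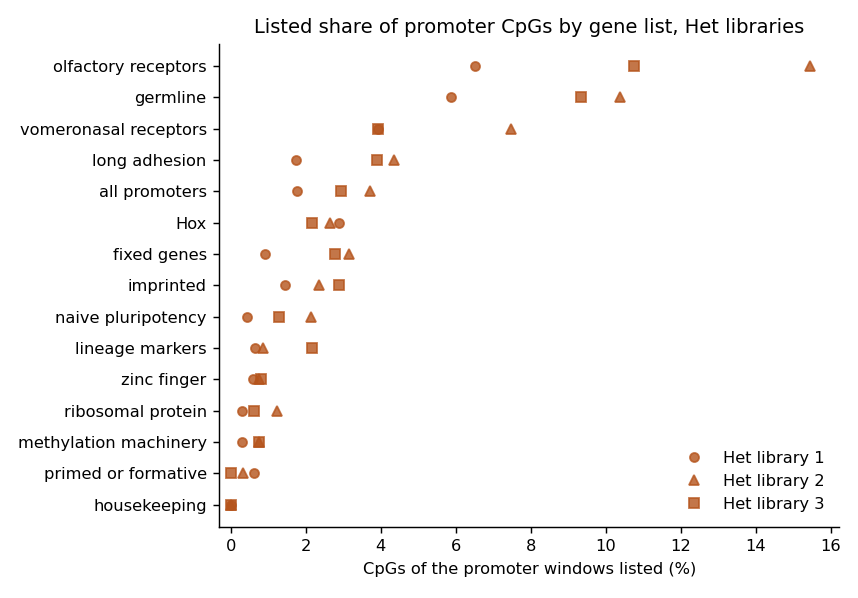
Percent of CpGs in the promoter windows of each gene list that were listed in Het libraries 1 (circles), 2 (triangles) and 3 (squares). Germline windows lie at 5.88% to 10.4%, above all promoters at 1.77% to 3.71%, and housekeeping windows at 0.

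Outside the lists, the CpG-rich windows with the most Het positions were ranked after their values were seen. A shared promoter of 3110070M22Rik and Tmem267 came first, with 3, 13 and 16 of 48 CpGs in the window of 3110070M22Rik. Both windows overlap and are not independent. Tex12, a synaptonemal complex protein, had 3, 6 and 5 of 26, and Ctnnd1, which encodes the junction protein p120-catenin, had 1, 6 and 11 of 30. Rad51c, a homologous recombination protein, had 0, 4 and 5 of 24.

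A WT position lay in 77 of the 7121 CpG-rich windows (1.08%). Of these 77, 7 also had a Het position in the window, a share near the 8.43% of all CpG-rich windows with a Het position. Besides Xpot, the windows with 2 WT positions included Ewsr1, an RNA-binding protein gene, Kmt2a, a histone H3K4 methyltransferase gene, and Stil, a gene of centriole duplication. None of these had a Het position. At the level of single CpGs, 0 of 28, 1 of 5 and 0 of 48 WT positions in CpG-rich windows were listed in any Het library. Since each Het library listed 0.108% to 0.258% of all CpGs in these windows, these counts do not tell the WT positions from other CpGs there.

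Gene ends showed the same direction at lower resolution. Within 1 kb of either annotated end of a protein-coding or lncRNA gene lay 6.51%, 6.54% and 6.67% of Het positions, against 11.4%, 11.2% and 10.7% of WT positions and 14.7% and 12.8% of control positions. The difference was −4.53 percentage points with no overlap between Het and any wild-type library (p = 0.1, exact permutation test). The nearest bin, within 0.5 kb, held 3.39 ± 0.0441% of Het and 6.79 ± 0.299% of WT positions. More than 50 kb from any end lay 21.8 ± 0.411% of Het and 17.7 ± 1.16% of WT positions. Between 5 and 10 kb the groups overlapped, at 14.7 ± 0.0891% in Het and 14.1 ± 0.787% in WT (exact permutation p = 0.4).

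Over protein-coding gene bodies the groups overlapped through WT library 2. Protein-coding bodies held 51.5%, 51.8% and 52.3% of Het positions and 55.6%, 50.5% and 53.6% of WT positions. The difference of −1.37 percentage points was within the spread of WT (exact permutation p = 0.4). It was −2.75 without WT replicate 2, then without overlap (exact permutation p = 0.1), and −0.18 without WT replicate 1. The share outside all annotated bodies was 41.1%, 40.8% and 40.4% in Het and 37.5%, 41.0% and 39.3% in WT, and the groups overlapped.

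**Figure D4:**
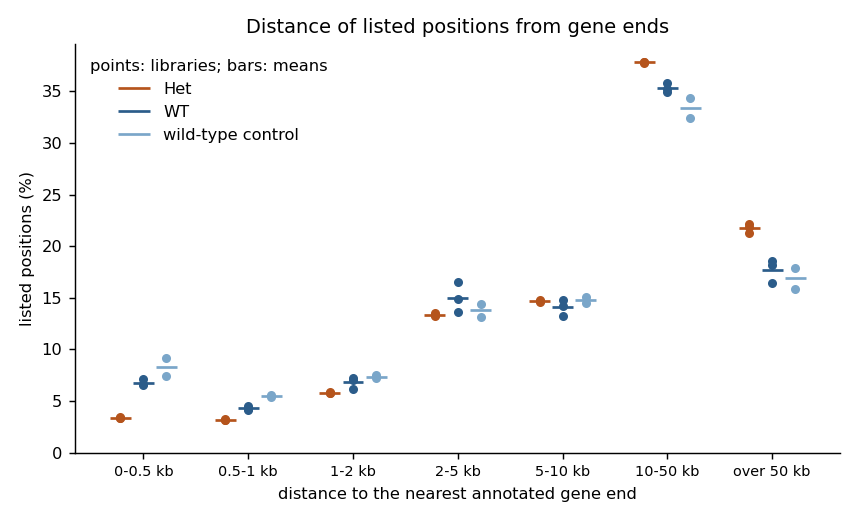
Percent of listed positions by distance to the nearest annotated gene end, for Het, WT and wild-type control libraries (points, with bars at group means). Het lies below every WT and control library within 0.5 kb, at a mean of 3.39%, and above them beyond 50 kb, at a mean of 21.8%.

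Counted over the bodies of the gene lists with 1 kb on each side, ribosomal protein genes held 1.47 ± 0.0642 per 10,000 positions in Het and 11.8 ± 2.25 in WT, without overlap. These WT values rest on 4, 1 and 8 positions. Imprinted genes held 18.2 ± 0.375 in Het and 28.3 ± 6.46 in WT, from 8, 3 and 18 WT positions, also without overlap. Among them Trappc9, a subunit of a vesicle tethering complex, had 618, 1215 and 945 positions in Het and 2, 0 and 6 in WT. Mkrn3, a ubiquitin ligase gene, had 2, 3 and 1 in Het and 3, 0 and 0 in WT, although WT libraries are far smaller. Long adhesion genes held 106.5 ± 2.21 per 10,000 in Het and 79.0 ± 31.8 in WT, also without overlap, where WT counts were 38, 4 and 53. Its member Cdh13, an atypical cadherin, had 1410, 2788 and 2242 positions in Het and 3, 1 and 3 in WT. Over all genes, lncRNA included and overlapping genes counted each, the share was 6645 ± 44.8 per 10,000 in Het and 7062 ± 219 in WT, without overlap. Also without overlap were the fixed set of genes, the methylation machinery and naive pluripotency lists, all higher in Het, and Hox genes. Hox genes were lower, at 2.24 ± 0.241 in Het and 8.21 ± 3.99 in WT. In the remaining lists the groups overlapped. With 3 libraries against 3 and so few WT positions, lack of overlap alone does not set a list apart. The lists were described by these values without a test.

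For most single genes WT depth allowed no comparison. Het libraries listed 130, 247 and 198 positions in and around Dnmt1, and 228, 424 and 359 in and around Esrrb, against 0 in each WT library for both. Small genes had few even in Het: Gapdh had 1, 3 and 2, and Pou5f1 had 1, 4 and 3. Distinct positions in gene bodies, fitted with edgeR and TMM scaling, gave 1148 of 10613 bodies higher in Het and none lower (10.8%). Of these, 677 had no WT position, and 1085 had 3 or fewer over all 3 WT libraries. Scaled to library totals instead, none was higher and 2 were lower in Het (0.0188%), so the direction of the gene body calls turned with the scaling and is not read as a result. The TMM calls with the largest fitted change were Cntnap2, a neuronal adhesion gene, with 578, 1208 and 826 positions in Het and 0 in WT, and Grik4, a glutamate receptor subunit gene, with 513, 1107 and 970 in Het and 0 in WT. With no WT position these have no usable fold. The next 8 by the same rule (Ephb1, A930011G23Rik, Sorcs2, Dym, Grin2b, Zfp385b, Dgki and Trerf1) also had no WT position. Scaled to totals, the bodies called lower in Het were Dhdds (43, 76 and 61 positions in Het and 4, 0 and 1 in WT) and AY036118 (89, 107 and 97 in Het and 2, 0 and 5 in WT). In both, WT library 2 had none, and the groups overlap. Only 4 gene-end regions passed the filter on low counts, and none was called by edgeR with TMM (0%), although 2 had an unadjusted p under 0.05, and AY036118 alone was called, lower in Het, on library totals (25%).

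Few single large windows passed the test, which at WT depth could miss most changes in windows of 100 kb. In windows of 5 Mb, edgeR with TMM scaling called 2 of 501 windows lower in Het (0.399%) and none higher, with the same counts on library totals. At 100 kb edgeR with TMM scaling called 2 of 21318, both lower in Het (0.00938%). The 100 kb windows lie within the 5 Mb ones. The first, chr17:39800001-39900000, holds AY036118 and had 3.11, 1.73 and 2.18 per 10,000 positions in Het libraries, against 67.9, 21.2 and 59.4 in WT and 80.9 and 72.8 in the control (log2 change −2.24 with TMM and −4.73 on totals, edgeR adjusted p = 0.000133 and 4.11e-24). The second, chr2:98600001-98700000, holds no annotated gene body and had 0.477, 0.318 and 0.362 per 10,000 positions in Het, against 18.3, 21.2 and 19.8 in WT and 2.22 and 11.6 in the control. These are 77, 107 and 94 positions in Het, 7, 2 and 11 in WT and 2 and 4 in the control (log2 change −3.23 with TMM and −5.72 on totals, edgeR adjusted p = 8.67e-09 and 1.84e-23). In that window the Het positions carried 159.3, 122.5 and 106.0 reads each, far above the averages of their libraries. As a share of reads the window held 0.0652%, 0.0529% and 0.0463% in Het, against 0.0957%, 0.124% and 0.149% in WT and 0.0133% and 0.0496% in the control, so the gap to WT was smaller by reads and the control did not lie above Het. Without WT replicate 3 no 100 kb window passed with edgeR (5575 had an unadjusted p under 0.05), and without any 1 of the Het libraries only 2 windows could be tested, of which 1 was called, higher in Het. Repeats were not used here, so their part in these windows was not tested.

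**Figure D5:**
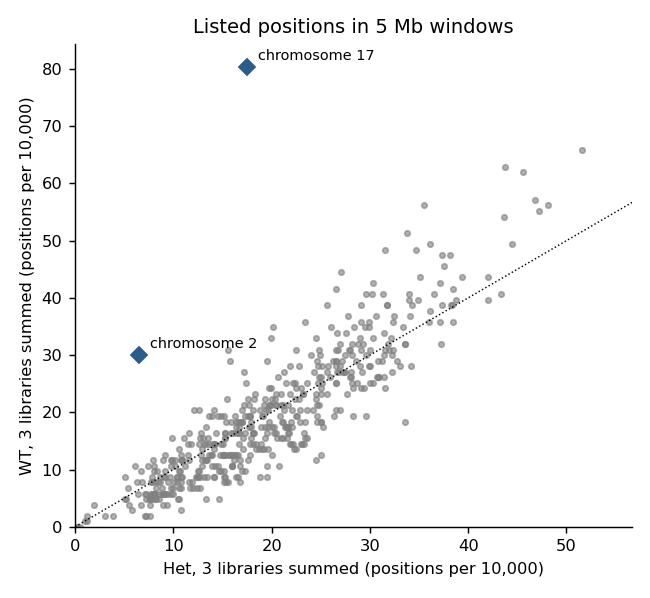
Positions per 10,000 in each 5 Mb window, Het libraries summed (x axis) against WT libraries summed (y axis), with the line of equality dotted. Diamonds are the 2 called windows, on chromosomes 17 and 2, which lie above the line among 502 windows. In the wild-type control, not drawn, these windows held 104.3 and 8.02 per 10,000.

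Over the 502 windows of 5 Mb, the summed Het and WT positions had a Spearman correlation of 0.891 and the WT and control positions one of 0.849, given as a description, since windows share their CpG content and their libraries. Of the 19 autosomes, 9 had Het and WT shares that did not overlap (47.4%), 6 higher and 3 lower in Het, each with p = 0.1 by exact permutation. Chromosomes 3, 13 and 14 were higher in Het and chromosomes 17 and 19 lower in Het than in every WT and control library. Chromosome 3 held 5.43 ± 0.0498% of Het and 4.53 ± 0.331% of WT positions. Chromosome 17 held 4.28 ± 0.0279% of Het and 5.39 ± 0.389% of WT positions. Without the called 100 kb windows chromosome 17 held 4.26 ± 0.0247% of Het and 4.92 ± 0.169% of WT positions, still without overlap. The 167 windows of 5 Mb richest in genes held 43.8 ± 0.510% of Het and 47.7 ± 0.198% of WT positions, and the 174 with the fewest genes 22.1 ± 0.433% of Het and 19.8 ± 0.752% of WT, both without overlap.

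At equal numbers of positions, WT positions had a near neighbour more often than Het positions. After every library was thinned at random to 945 positions, 0.116%, 0.148% and 0.159% of Het positions had another within 1 kb, against 2.22%, 2.12% and 1.66% of WT positions and 1.28% and 2.36% of control positions. The difference was −1.86 percentage points, with no overlap (p = 0.1, exact permutation test). Without thinning the direction turns, since 80.3%, 93.2% and 89.7% of the far more numerous Het positions had such a neighbour. Thinning separates neighbours in the larger libraries, so these values compare libraries at 1 number of positions only. WT library 2 was left whole, while the Het libraries were cut from 1612851, 3362003 and 2595676 positions. The direction thus depends on the thinning. Most close WT pairs were very close, with 4.49%, 1.69% and 4.86% of all WT positions within 20 bases of another.

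Recurrence of single positions follows library size and was not compared between the groups. Of 6317488 distinct Het positions, 1073728 were listed in 2 libraries and 89657 in all 3. Of 10299 distinct WT positions, 26 were in 2 libraries and 2 in all 3. Het library 2, the largest, listed 24.9% of the positions of Het library 1 and 24.4% of those of Het library 3, and it listed 22.7%, 22.3% and 21.4% of the positions of the WT libraries. In Het library 1, the positions shared with the WT libraries carried 19.1, 16.1 and 20.5 reads on average, against 12.2 at those shared with Het library 2 and 11.7 at all its positions. The position listed in all 3 WT libraries outside any gene, on chromosome 5 at 64149100, had 1, 30 and 30 reads in the Het libraries and 6, 5 and 2 in WT. The other lay in Ctnna1, the alpha-catenin gene, with 26, 9 and 0 reads in Het and 3, 2 and 12 in WT.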

How the data were processed

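TOP-seq libraries of genomic DNA were analysed from 3 Het, 3 WT and 2 wild-type control samples; the other 8 libraries of the series were not used. Per the labels' protocols, a biotinylated oligonucleotide was clicked onto the azide groups, strands were primed from it, and products were read on the Ion Proton platform. The submitters' processing notes name cutadapt 4.4, BWA 0.7.17-r1188, SAMtools 1.12 and build mm10; settings are not given in the sources read. The authors deposited, per the file headers and values, a whole-number read count for each listed CpG position, without normalization. In promoter windows, 100% of listed positions were at a CG of the RefSeq sequence. Autosomal depth per library is given with the totals.

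Genes (20661 protein-coding and 12408 lncRNA) and promoter windows came from RefSeq on GRCm38.p6; promoters on chromosome 18 were not used here. A position in several genes counted for each, and strand was not used, so such genes, antisense ones included, share counts. Features were fitted with edgeR 4.0.16 in R 4.3.3 (filterByExpr, TMM, glmQLFit, glmQLFTest), with Benjamini-Hochberg adjustment at 0.05 over all features. TMM factors reached far from 1 on sparse features, so library totals were added after seeing the data; on simulated counts TMM called many unchanged gene bodies, while library totals called none but also recovered no changed gene body, so few calls there do not show likeness. Standard errors are the log2 change over the square root of F. In the main fits the common coefficient of variation between libraries was 0.0126 in start bins and 0.0151 in 5 Mb windows. It was 0.00988 in 100 kb windows and gene bodies. An edgeR p-value far below 0.1 leans on this model, since permuting 3 against 3 libraries can give no less. DESeq2 1.42.0 was an alternative. Shares and totals were set against each other with exact permutation tests, two-sided (scipy 1.17.1, numpy 2.4.6, pandas 2.3.3, Python 3.11.15), and figures drawn with matplotlib 3.10.9. Intervals are exact (Clopper-Pearson) at 95%, and a count of 0 allows 3 counts.

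Named genes were, in each fit, up to 10 called features with the largest change and groups apart, the 2 members of each list with the most WT positions, a fixed set of genes, positions found in all 3 WT libraries, and genes said to be picked on their values; further list members were named to illustrate the counts. Members and lists were chosen with earlier results of these data known. Libraries with the same replicate number did not deviate together over windows (r = -0.075, -0.047 and 0.108), so the numbers were not taken to pair the samples.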

Additional observations from a re-analysis of the deposited data

Results flagged for a closer look

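The sex chromosomes, which no comparison above used, held listed positions in the Het libraries at a share above that of the WT libraries. It was 1.77% of all positions in Het library 1, 1.79% in Het library 2 and 1.71% in Het library 3, against 0.829%, 1.56% and 1.24% in the WT libraries. The groups did not overlap, but the wild-type controls, at 1.34% and 1.86%, spanned the Het values. On chromosome Y, 126, 172 and 146 positions were listed in Het and 1, 0 and 2 in WT. The cause was not tested.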

How the results depend on the processing

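Of the alternative settings run, 95 left a result on the same side of its threshold and in the same direction, or a count within 1.5 times. A further 33 moved a count or correlation more, 5 took a result past its threshold and 1 reversed. For shares and totals the side was fixed in advance unless controls were added, since Het and WT alone cannot give p under 0.1. Only a change of direction could show there. Adding the wild-type controls to WT was not planned and mixes groups whose difference is not known. It took 5 results past 0.05 by exact permutation (p = 0.0179, the smallest possible). Reads were 2441-fold and positions 666.6-fold higher in Het. Het minus wild-type differences were −5.59 points near gene ends, −39.8 points in CpG-rich promoters and −1.79 points in spacing. Without thinning the spacing difference reversed to 82.9 points. Mean Spearman correlations at 945 positions were 0.0142 for Het pairs, 0.0174 for Het with WT and 0.0255 for WT pairs over 100 kb windows, and moved to 0.105, 0.119 and 0.145 over 1 Mb windows.

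Counts of called features depended on the setting, and the cause was not tested beyond the fewer features tested under some. Windows of 5 Mb gave 12 calls with reads (12 on totals), 7 with DESeq2 and 1 of 121 with Het thinned. Windows of 100 kb gave 11846 with reads and TMM, 11738 of them higher in Het, and 669 on totals, all lower in Het, so that the direction turned with the scaling. They gave 1 with DESeq2, 1 with the replicate block and 0 to 2 with 1 library left out. Gene bodies gave 5849 with reads, 5683 of them higher in Het, and 655 on totals, 653 of them lower. They gave 0 with DESeq2 size factors, 10 with DESeq2, 0 with the replicate block, 2 on totals and 321 to 426 without 1 WT library. Gene ends gave 15328 with reads, 15317 of them higher in Het, and 499 on totals, all lower. They gave 15158 with no filter, 1 within 500 bases, 36 within 2 kb, 1 on totals and 284 to 313 without 1 WT library. Start bins gave 10 to 13 calls over all alternatives, all lower in Het except 1 higher with TMM and 1 with DESeq2. At unadjusted p under 0.05, 39 windows of 5 Mb passed. Not run, since too few features passed or size factors were undefined, were 100 kb, gene body and gene end fits with Het thinned, gene body and gene end fits without 1 Het library, and gene ends with DESeq2 or its size factors. WT depth, 945 positions at the lowest, limits every single-gene comparison.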
